A study of Homo sapiens with 6 samples.

Results

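Aminoacyl-tRNA synthetases attach each amino acid to its transfer RNA, and 36 genes for them were followed among the 12396 named genes of an RNA-seq table. They were chosen by gene symbol, in the older spelling that the table uses, so that cytosolic alanyl-tRNA synthetase appears as AARS. All of the 36 members were measured in every library. The cells were JHH-4, an epithelial-like human hepatocellular carcinoma line. In the miR372_3p group the microRNA hsa-miR-372-3p was overexpressed from a plasmid carrying its primary transcript. The Control group is the same line with a wild-type label, and the labels do not say whether it received an empty plasmid. Each group had 3 libraries that the submitters describe as technical replicates, so p-values measure the spread between these libraries and not between independent cultures or other liver cancer lines. The mature microRNA itself is not measured by this mRNA table and its level was not analysed here.

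Most human cells keep separate sets of these enzymes. Cytosolic synthetases supply the ribosomes that read nuclear-encoded mRNAs, whereas mitochondrial synthetases are encoded in the nucleus, imported, and serve the small set of proteins encoded by mitochondrial DNA. A few cytosolic enzymes sit together in the multi-tRNA synthetase complex, held by the scaffold proteins AIMP1, AIMP2 and EEF1E1. GARS and KARS each make both a cytosolic and a mitochondrial enzyme from 1 gene and were counted with the cytosolic set. During amino acid shortage the transcription factor ATF4 induces many cytosolic synthetase genes together with genes of amino acid supply. The members comprised 20 cytosolic and 16 mitochondrial enzymes, and 8 of the cytosolic ones are enzymes of the complex.

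Counts on named genes came to between 51072581 and 60070397 per miR372_3p library and between 46851245 and 47890069 per Control library. The first principal component, 78.1% of the variance, separated the groups, and Control library 3 stood apart from the other Control libraries on the second, which held 8.1%. Of 15 hepatocyte and liver cancer cell markers, 6 were in the table and all 6 changed, 3 in each direction; their summed level was 4734 to 4885 counts per 1000000 (CPM) in miR372_3p libraries, against 2366 to 2457 CPM in Control libraries. KRT18, an epithelial keratin, averaged 1441 CPM in miR372_3p and 581 CPM in Control libraries, while SERPINA1, the liver protease inhibitor alpha-1 antitrypsin, averaged 1.76 and 8.98 CPM. The markers ALB, AFP, APOA1, APOA2, APOB, TTR, TF, HNF4A and GPC3 were not analysed here. Of 15 markers of other cell types, 4 were in the table, namely CD68, COL1A1, COL1A2 and PDGFRB, with a summed level of 210 to 221 CPM in miR372_3p against 131 to 154 CPM in Control libraries. COL1A1 and PDGFRB of these were higher. The part of these marker differences in any result on the synthetases was not tested, and in bulk RNA fewer cells of a type and less RNA per cell cannot be told apart.

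Sequences that can be set beside the mRNA changes came first from the microRNA. Its mature form is shown from RefSeq (GRCh38.p14, chr19:53787931-53787953, plus strand) with the seed, bases 2 to 8, in capitals.
hsa-miR-372-3p: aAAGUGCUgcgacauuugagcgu
Matches to this seed were looked for in annotated 3′ untranslated regions (GENCODE 29, GRCh38) of the sense strand, as the letters AGCACTT (a 7mer) or its inner GCACTT (a 6mer). Of the 35 synthetases with at least 50 bases of 3′ untranslated region, all but RARS2, 4 held the 7mer without a following A, which is 11.4%, against 21.5% of the 12192 genes searched. No synthetase held the full 8mer, which 4.05% of all genes searched held. No match of any class was found in 27 of the 35 synthetases, or 77.1%, against 59.4% of all genes searched. The synthetases' untranslated regions were shorter, with a median of 639 against 1398 bases. The 4 belonged to 2 genes that fell, FARSB and AARS2, and to 2 that did not pass the test, LARS and YARS2. The letters around the 7mer were nearly alike in all 4, with taatcc shortly before it and gggaggc shortly after it. The flanking letters thus did not set FARSB and AARS2 apart from LARS and YARS2. Whether these windows lie in a repeated element was not tested. LARS2, which also fell, held only 6mers, which are shown with 9 flanking bases on either side and the match in capitals.
LARS2, 6mer nearer the stop codon (chr3:45547908-45547931, plus strand): ctgccttagGCACTTctcgggaat
LARS2, 6mer nearer the 3′ end (chr3:45549200-45549223, plus strand): cacattgatGCACTTgagccatca
The remaining genes whose best match was a 6mer were HARS, MARS2 and WARS2, none of them past the test. A match is a description of letters and not evidence that the microRNA binds there.

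The other sequence set is the ATF4-type element TGATGCAA, searched on both strands of RefSeq promoter windows of 300 bases (GRCh38.p14, 250 before to 50 after the gene start). It was present in 6 of the 30 synthetase promoters in that table, or 20%, against 0.866% of all 35116 promoters and 0.726% of the 10055 tested genes with an entry. All 6 were cytosolic, 6 of 16, while 0 of 14 mitochondrial promoters held it. DARS, LARS, VARS, YARS, AARS2 and VARS2 were not searched. The 6 windows are printed on the gene's strand with the element, or its reverse complement TTGCATCA, in capitals.
AARS (chr16:70289675-70289704, minus strand): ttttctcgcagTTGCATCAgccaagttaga
CARS (chr11:3057407-3057436, minus strand): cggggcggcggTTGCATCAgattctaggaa
IARS (chr9:92293692-92293721, minus strand): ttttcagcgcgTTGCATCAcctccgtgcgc
MARS (chr12:57488053-57488082, plus strand): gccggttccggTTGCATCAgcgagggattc
NARS (chr18:57621804-57621833, minus strand): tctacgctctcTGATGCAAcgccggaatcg
TARS (chr5:33440956-33440985, plus strand): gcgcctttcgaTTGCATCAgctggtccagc
In 5 of the 6, all but AARS, the element's first base lay within 14 bases of the annotated start. The looser form TGATGNAA, which contains the first, was in 8 of 30 synthetase promoters, adding GARS and YARS2. It was in 3.62% of all promoters and 2.785% of the 10055 tested genes with an entry.

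In level, the cytosolic enzymes stood above the mitochondrial ones. On the deposited FPKM scale, fragments per kilobase of transcript per 1000000 fragments, the median over cytosolic members was 73.7 in miR372_3p and 71.0 in Control libraries, and the median over mitochondrial members was 13.6 in miR372_3p and 13.2 in Control libraries. GARS, the glycyl enzyme, was highest with 132 FPKM in miR372_3p and 112 FPKM in Control libraries. PARS2, the mitochondrial prolyl enzyme, was lowest with 3.53 and 3.59 FPKM. The ranges overlapped. The mitochondrial isoleucyl enzyme IARS2 averaged 48.5 FPKM in miR372_3p and 47.6 FPKM in Control libraries, above 7 of the 20 cytosolic members in miR372_3p and 5 in Control libraries. FARSB, the beta subunit of cytosolic phenylalanyl-tRNA synthetase, averaged 17.1 and 23.2 FPKM and was the lowest cytosolic member, below 6 of the 16 mitochondrial ones in miR372_3p and 2 in Control libraries. For 14 amino acids the cytosolic and mitochondrial enzymes were paired, leaving out glutamate and proline, which share the cytosolic enzyme EPRS. In Control libraries the cytosolic enzyme's FPKM was 1.6 times the mitochondrial one's for isoleucine and 15.7 times for phenylalanine, with a median of 5.15.

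**Figure D1:**
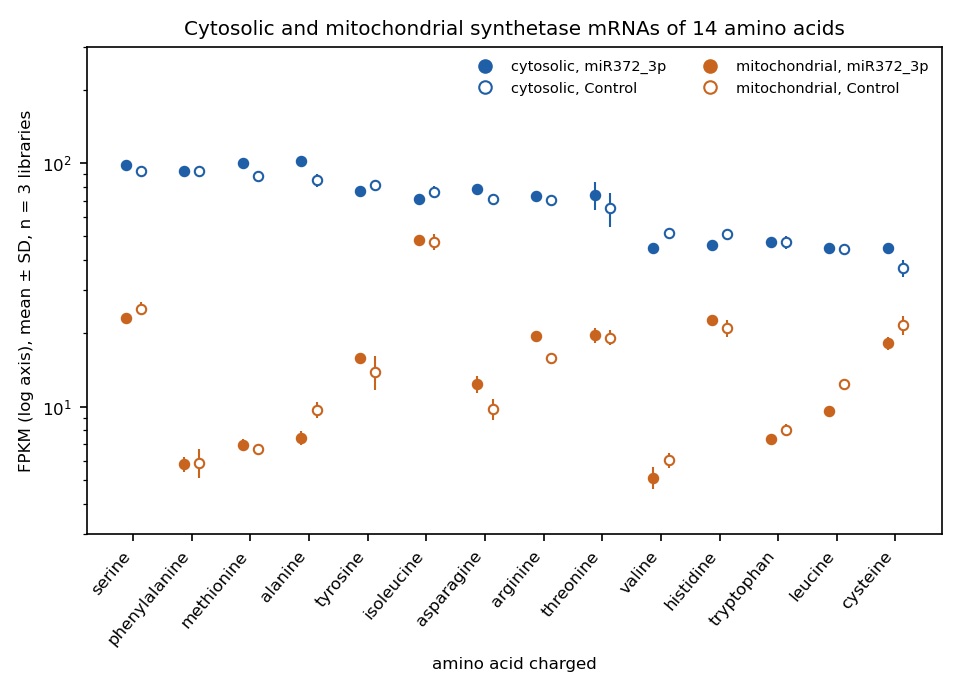
Mean FPKM (log axis, bars of 1 SD) of the cytosolic and mitochondrial enzymes for 14 amino acids, in 3 miR372_3p and 3 Control libraries. Phenylalanine is shown by FARSA and FARS2. GARS, PARS2 and FARSB are among the members not drawn. IARS2 lies among the cytosolic values.

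Summed FPKM of the 20 cytosolic members was 1462, 1445 and 1403 in the miR372_3p libraries, against 1360, 1324 and 1396 in the Control libraries. The groups did not overlap, by a margin of less than the spread within either. In summed CPM, the cytosolic members had 4713, 4715 and 4641 in miR372_3p against 4504, 4447 and 4534 in Control libraries, where the margin between the groups was larger than the spread within either. Summed FPKM of the 16 mitochondrial members was 243.8, 239.3 and 238.7 in miR372_3p, against 239.6, 231.7 and 254.2 in Control libraries, with the miR372_3p values inside the Control range. These sums are relative to the size of a library, which for CPM is scaled between libraries, and carry no test.

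Between the groups, 9 synthetase mRNAs rose, 7 fell and 20 did not pass the test (edgeR quasi-likelihood, Benjamini-Hochberg adjusted p under 0.05 over all 12396 genes). The 16 called are 44.4% of the members, and the background is high: 54.5% of all genes tested were called, 26.8% as higher and 27.7% as lower. The libraries of the groups did not overlap for 20 of the 36 members, against 62.2% of all genes. Changes were small. The median absolute log2 fold change was 0.12 over the synthetases and 0.22 over all genes, and the median signed log2 fold change was 0.0285 and 0.0013. FARSB, AARS2, LARS2 and NARS2 were called with a log2 fold change of 0.3 or more in size, as were 34.1% of all genes, and no synthetase reached 1, against 6.03% of all genes called at that size.

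**Figure D2:**
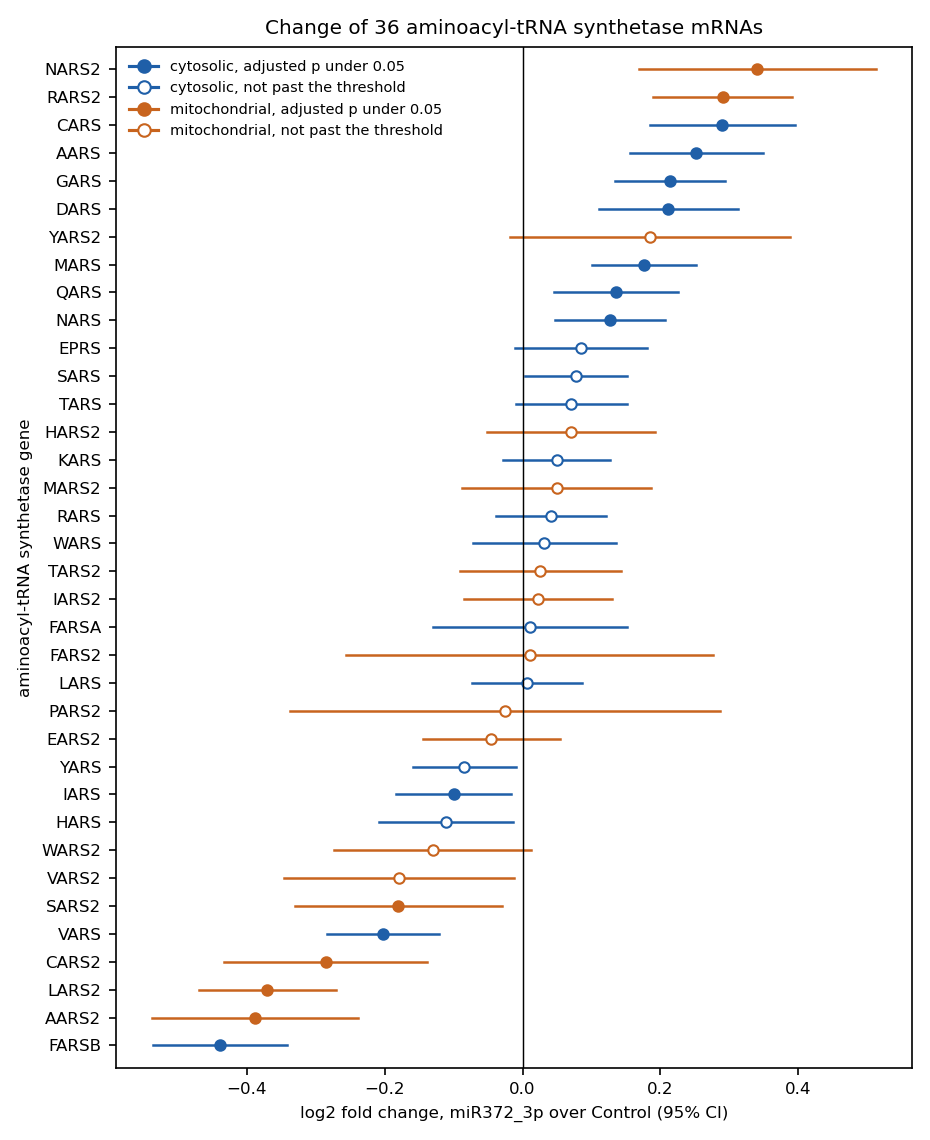
Log2 fold change, miR372_3p over Control, of the 36 synthetases with 95% intervals, sorted by change and coloured by compartment. Filled points have an edgeR adjusted p under 0.05. Members run between -0.44 for FARSB and 0.34 for NARS2.

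By compartment, 7 cytosolic enzymes rose, 3 fell and 10 did not pass, with a median log2 fold change of 0.06. Among mitochondrial enzymes 2 rose, 4 fell and 10 did not pass, with a median of -0.0077. Called members were 50% of the cytosolic and 37.5% of the mitochondrial enzymes, against 54.5% of all genes. With upper-quartile scaling, under which 54.7% of all genes were called, and likewise when genes under a mean of 5 CPM were left out (56.7% called), the cytosolic split was 7 higher and 5 lower. The difference between the compartments was not tested. The median standard error of the log2 fold change was 0.0369 over cytosolic and 0.0647 over mitochondrial members.

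The largest fall among the members was in FARSB. It had 64.87, 64.57 and 64.96 CPM in the miR372_3p libraries, against 87.9, 90.8 and 85.0 CPM in the Control libraries. The miR372_3p values lay close together and all below the Control values, and the log2 fold change was -0.44 ± 0.04 (SE; 1.36-fold lower; edgeR adjusted p = 2.34e-05). FARSA, the alpha subunit with which it forms the working enzyme, had 187.3, 193.0 and 179.7 CPM in miR372_3p against 185.7, 202.3 and 167.8 CPM in Control libraries. The FARSA groups overlapped fully, with a log2 fold change of 0.01 (edgeR adjusted p = 0.895). The CPM ratio of FARSB to FARSA was accordingly 0.346, 0.335 and 0.362 in miR372_3p, against 0.473, 0.449 and 0.506 in Control libraries. The mitochondrial phenylalanyl enzyme FARS2, a single chain, had 10.9, 11.9 and 10.2 CPM in miR372_3p and 9.88, 12.9 and 9.99 CPM in Control libraries, again overlapping.

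Alanine and cysteine were the amino acids whose enzymes moved in opposite directions past the test. AARS had 392.6, 406.0 and 391.1 CPM in miR372_3p libraries, against 331.6, 316.6 and 350.6 CPM in Control libraries (log2 fold change 0.25 ± 0.04 SE, edgeR adjusted p = 0.000763). AARS2, which charges alanine tRNA in mitochondria, had 33.3, 33.9 and 29.7 CPM in miR372_3p, against 42.5, 39.4 and 44.8 CPM in Control libraries (-0.39 ± 0.07 SE, 1.31-fold lower, edgeR adjusted p = 0.000826). In neither gene did the groups overlap. The ratio of AARS2 to AARS in CPM was 0.0847, 0.0834 and 0.0759 in miR372_3p and 0.128, 0.124 and 0.128 in Control libraries.

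CARS, the cytosolic cysteinyl enzyme, had 133.0, 133.6 and 128.3 CPM in miR372_3p libraries, against 109.5, 101.1 and 112.5 CPM in Control libraries (log2 fold change 0.29 ± 0.05 SE, edgeR adjusted p = 0.000573). CARS2, its mitochondrial counterpart, had 36.8, 33.7 and 34.0 CPM in miR372_3p, against 42.1, 39.2 and 46.1 CPM in Control libraries (-0.29 ± 0.07 SE, edgeR adjusted p = 0.00448). The CARS2 groups were separate. In CPM, the CARS2 to CARS ratio was 0.276, 0.252 and 0.265 in miR372_3p and 0.385, 0.388 and 0.41 in Control libraries.

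For leucine, only the mitochondrial enzyme passed the test. LARS2 had 47.6, 47.7 and 45.7 CPM in miR372_3p libraries, against 61.9, 60.9 and 59.5 CPM in Control libraries, a log2 fold change of -0.37 ± 0.04 (SE; 1.29-fold lower; edgeR adjusted p = 7.92e-05). LARS, the cytosolic enzyme that also acts in leucine sensing for mTORC1, had 243.6, 234.1 and 240.3 CPM in miR372_3p against 239.8, 232.3 and 242.9 CPM in Control libraries. The LARS groups overlapped, with a log2 fold change of 0.0060.

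NARS2, the mitochondrial asparaginyl enzyme, had the largest rise of the members: 36.5, 32.0 and 35.6 CPM in miR372_3p libraries, against 27.5, 24.9 and 29.9 CPM in Control libraries (log2 fold change 0.34 ± 0.08 SE, edgeR adjusted p = 0.00405). Its cytosolic partner NARS also rose, with 268.6, 267.9 and 268.1 CPM in miR372_3p against 241.4, 240.8 and 254.8 CPM in Control libraries (0.13 ± 0.04 SE, edgeR adjusted p = 0.0133). Neither gene's groups overlapped. NARS lost its call without miR372_3p library 1 (edgeR adjusted p = 0.0506) and without Control library 1 (0.0686).

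**Figure D3:**
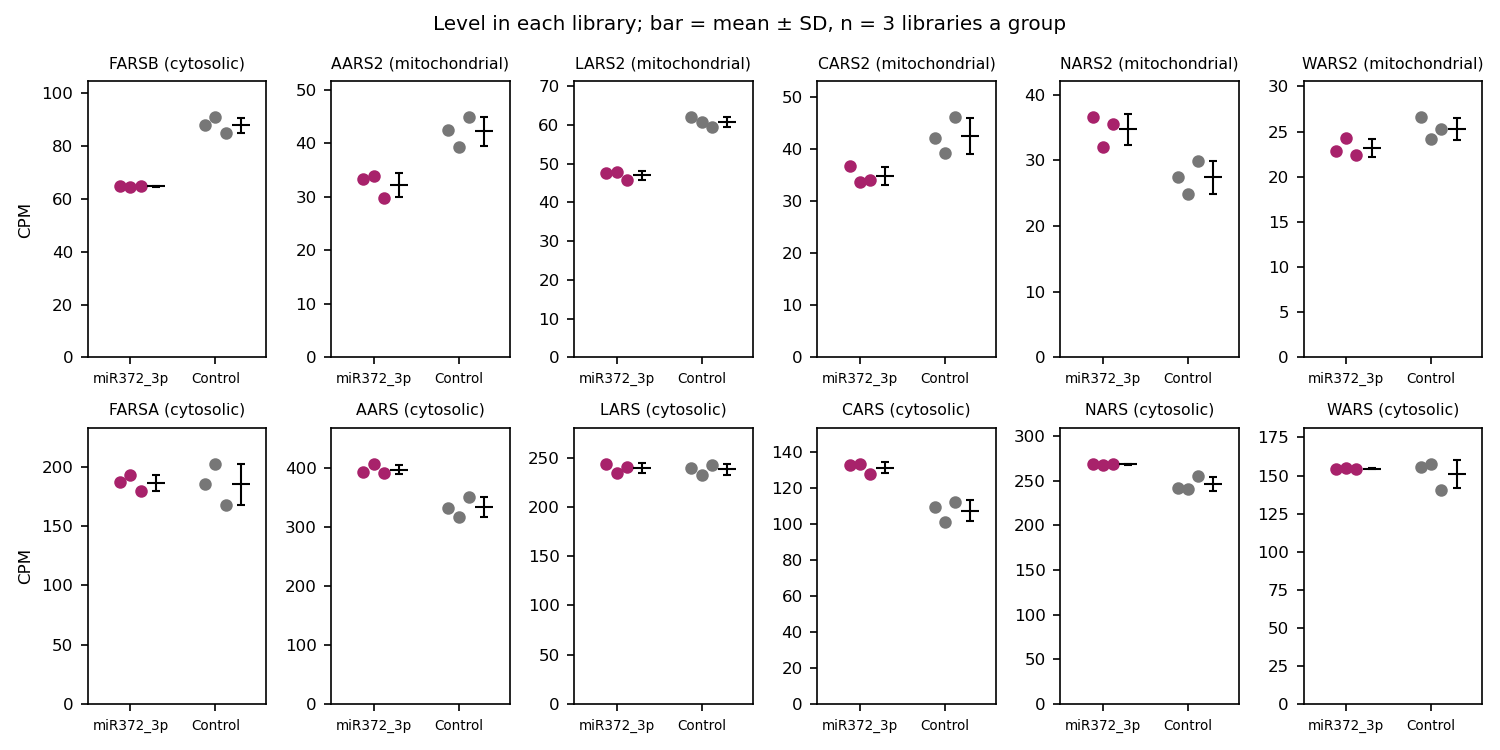
CPM in each library of the synthetases described library by library, except FARS2, with miR372_3p libraries left of Control libraries. FARSB, AARS2 and LARS2 are lower and NARS2 and AARS higher in all 3 miR372_3p libraries, while FARSA, LARS, WARS and WARS2 overlap.

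Tryptophan gave no call in either compartment. WARS, a synthetase known for induction by interferon gamma, had 154.3, 155.1 and 154.3 CPM in miR372_3p and 155.3, 157.6 and 140.7 CPM in Control libraries (log2 fold change 0.03, edgeR adjusted p = 0.593). WARS2 had 22.8, 24.3 and 22.4 CPM in miR372_3p and 26.6, 24.1 and 25.3 CPM in Control libraries (-0.13, edgeR adjusted p = 0.109). Both overlapped.

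Across the 14 paired amino acids, the cytosolic log2 fold change was the higher one in 8. It was the higher one in 7 with FARSB in place of FARSA, which lay beside FARS2 at 0.0108 and 0.0101. Glutamate and proline were left out of the pairs. Their shared cytosolic enzyme EPRS was at 0.0845, above EARS2 at -0.0456 and PARS2 at -0.0254, none of them called. The within-library CPM ratio of mitochondrial to cytosolic partner did not overlap between the groups for 10 of the 14, with 5 lower and 5 higher in miR372_3p libraries; single genes did not overlap in 62.2% of cases. A two-sided exact permutation test of 3 against 3 libraries cannot go below p = 0.1, so these ratios are given as values without a call. Asparagine was the amino acid for which both partners rose.

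**Figure D4:**
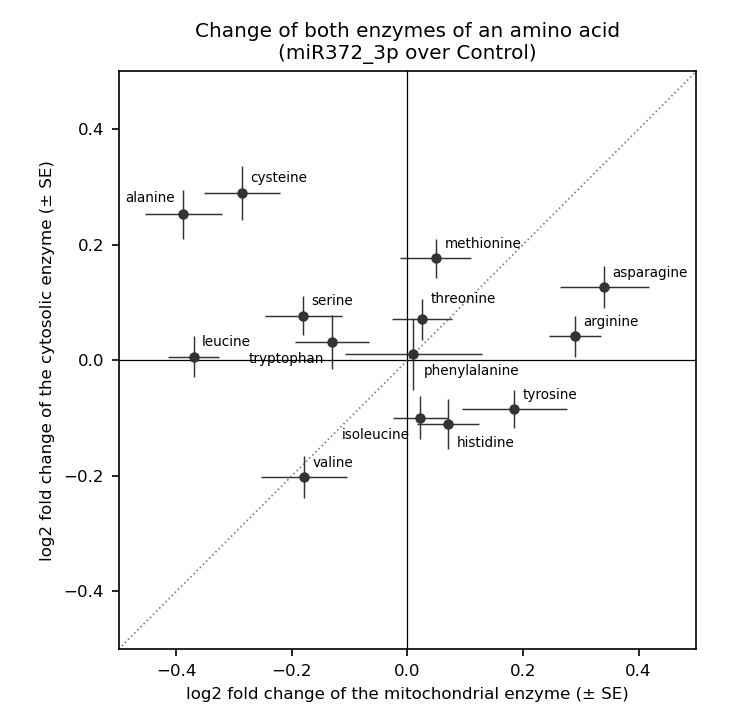
Log2 fold change (miR372_3p over Control, ± SE) of the mitochondrial enzyme on the horizontal and of the cytosolic enzyme on the vertical axis for 14 amino acids, phenylalanine by FARSA and FARS2, with the diagonal dotted. Alanine and cysteine lie upper left and asparagine upper right, with both partners called.

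Among the 8 enzymes of the multi-tRNA synthetase complex, DARS (aspartyl, log2 fold change 0.21), MARS (methionyl, 0.18) and QARS (glutaminyl, 0.14) rose, IARS (isoleucyl, -0.10) fell, and EPRS, KARS, RARS and LARS lay between 0.0060 and 0.08 without passing. The median was 0.07. Called enzymes were 50% of the 8, against 54.5% of all genes. Of the scaffolds, AIMP2 had 81.7, 92.1 and 79.7 CPM in miR372_3p against 66.1, 66.6 and 60.4 CPM in Control libraries and rose (log2 fold change 0.39 ± 0.06 SE, edgeR adjusted p = 0.000649). AIMP1 averaged 54.9 ± 1.26 CPM in miR372_3p and 51.6 ± 3.34 CPM in Control libraries (SD, n = 3 each; edgeR adjusted p = 0.195), and EEF1E1 33.1 ± 0.985 and 34.4 ± 2.85 CPM (edgeR adjusted p = 0.484). Without Control library 3, AIMP1 passed the test at 0.14 (edgeR adjusted p = 0.0267).

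Of the 12 cytosolic members outside the complex, CARS, AARS, GARS (0.21) and NARS rose, and FARSB and VARS fell. Those called were 50% of the 12, against 54.5% of all genes. VARS, the valyl enzyme that associates with elongation factor 1, had a log2 fold change of -0.20 ± 0.04 (SE, edgeR adjusted p = 0.00111). SARS, TARS, WARS, FARSA, YARS and HARS did not pass and ran between -0.11 and 0.08. The other mitochondrial changes were a rise of RARS2 by 0.29 ± 0.05 (SE; arginyl; edgeR adjusted p = 0.000439) and a fall of SARS2 by 0.18 ± 0.07 on the log2 scale (SE; seryl; edgeR adjusted p = 0.0435). The SARS2 libraries of the groups overlapped. The uncalled mitochondrial members ran between -0.18 for VARS2 and 0.18 for YARS2.

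Several calls near the threshold changed when 1 library was left out, a fit that also has fewer libraries to test. IARS was not past it without miR372_3p library 1, 2 or 3 (edgeR adjusted p = 0.118, 0.0803 and 0.113), Control library 1 (0.0727) or Control library 3 (0.0749). SARS2 was not past it without miR372_3p library 1 or 3 (0.123 and 0.167) or Control library 1 or 2 (0.115 and 0.111), and QARS not without miR372_3p library 1 or 2 (0.0616 and 0.0664). Without Control library 3, YARS2 passed at a log2 fold change of 0.30 (edgeR adjusted p = 0.00185), EPRS at 0.11 (0.0346), HARS at -0.12 (0.0341) and YARS at -0.09 (0.0464). VARS2 passed without miR372_3p library 2, at -0.24 (0.0295). Leaving out miR372_3p library 1 gave 12 called synthetases, the fewest, with 46.5% of all genes called, and leaving out Control library 3 gave 19, the most, with 57.3% of all genes called. With the replicate number as a block, 17 were called, against 54.9% of all genes.

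Counts of a few members are uncertain because their exons overlap those of other genes and the library kit is not stated to keep strand. Of the exonic bases of SARS2, 57.0% are shared, chiefly with AC011455.2, a protein-coding annotation on the same strand. The share was 22.0% for VARS2, chiefly with GTF2H4, 15.8% for HARS2 and 8.38% for HARS, chiefly with each other, 13.3% for MARS, chiefly with ARHGAP9, and 10.6% for WARS, chiefly with an antisense RNA.

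Sorted by promoter, 4 of the 6 synthetases with TGATGCAA rose (AARS, CARS, MARS and NARS), IARS fell and TARS did not pass, with a median log2 fold change of 0.15. Of the 14 cytosolic members without it or not searched, 3 rose and 2 fell, with a median of 0.04. Of the 67 other tested genes that held the element, 24 rose and 22 fell, with a median of 0.04, and of all genes 26.8% rose and 27.7% fell. The difference between synthetases with and without the element was not tested. Other genes known as ATF4 targets, 28 of 29 listed being in the table and MTHFD2 not analysed here, included 11 that rose, 6 that fell and 11 that did not pass, with a median of 0.05. The 17 called are 60.7%, against 54.5% of all genes. The 3 largest changes, described next, were all rises. The largest fall, in the amino acid transporter SLC1A4, was nearly as large as the third of them (log2 fold change -0.62, edgeR adjusted p = 7.6e-06). CHAC1, which degrades glutathione, averaged 23.9 ± 2.94 CPM in miR372_3p and 12.3 ± 0.903 CPM in Control libraries (SD, n = 3 each; log2 fold change 0.95, edgeR adjusted p = 3.21e-05). STC2, a secreted glycoprotein hormone, averaged 64.0 ± 3.16 and 33.2 ± 1.253 CPM (0.95, edgeR adjusted p = 5.45e-07), and the stress factor ATF3 averaged 10.7 ± 1.27 and 6.92 ± 0.897 CPM (0.63, edgeR adjusted p = 0.00242). ATF4 mRNA had 647.1, 652.6 and 633.1 CPM in miR372_3p against 622.5, 616.9 and 613.0 CPM in Control libraries. These did not overlap, but the log2 fold change of 0.06 did not pass (edgeR adjusted p = 0.13).

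Among 10 other charging and proofreading factors, PSTK (a kinase of selenocysteine tRNA charging, log2 fold change 0.44, edgeR adjusted p = 0.0351) and TARSL2 (a second cytosolic threonyl enzyme, 0.24, 0.0283) rose. DTD1, which removes D-amino acids from tRNA, fell by 0.28 on the log2 scale (edgeR adjusted p = 0.00193). GATB, a subunit of the mitochondrial glutamyl-tRNA amidotransferase, also fell. Called members were 40% of the list, against 54.5% of all genes. On deposited FPKM, DTD1 was at -0.03 (limma adjusted p = 0.913). PSTK was not past the threshold without miR372_3p library 1 or 3 or Control library 1 or 3 (edgeR adjusted p = 0.092, 0.128, 0.0733 and 0.0882). TARSL2 was not past it without miR372_3p library 1, 2 or 3 (0.067, 0.0556 and 0.0927) or Control library 1 or 3 (0.108 and 0.0529).

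Downstream of the mitochondrial synthetases, 0 of 12 mitochondrial translation factors rose and 4 fell, with a median log2 fold change of -0.04. The 4 are 33.3% of the list, against 54.5% of all genes called and 27.7% called as lower. TUFM, the elongation factor that brings charged tRNA to the mitochondrial ribosome, had 314.6, 320.8 and 295.6 CPM in miR372_3p against 371.9, 381.4 and 365.7 CPM in Control libraries (-0.27, edgeR adjusted p = 0.000374). C12orf65, a ribosome rescue factor, was at -0.32 (edgeR adjusted p = 0.00856) and MTIF3, an initiation factor, also at -0.32 (0.0362); MRPL58 was the fourth. MTIF3 was not past the threshold without miR372_3p library 1 or 3 (0.108 and 0.106) or Control library 1 (0.153, at -0.21).

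**Figure D5:**
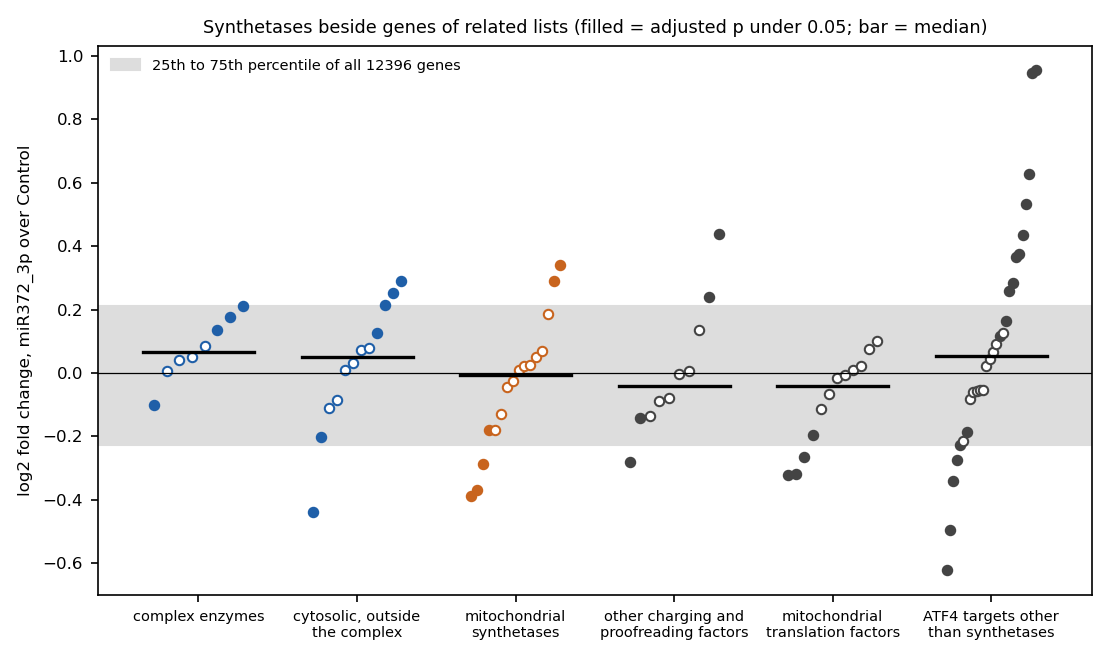
Log2 fold change, miR372_3p over Control, of each gene in 6 lists, with filled points for an edgeR adjusted p under 0.05, black bars for medians and a grey band for the 25th to 75th percentile of all 12396 genes. Most synthetases lie inside the band, and the widest spread is among the ATF4 targets.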

How the data were processed

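The deposited table holds whole-number read counts per gene, with FPKM values, for 6 libraries made from 1 µg of total RNA each. Per the submitters' processing notes, HISAT2 2.0.4, StringTie 2.2.1 and DESeq2 1.38.3 were used with GRCh38, in roles that the notes do not state. The authors' deposited table also holds their log2 fold changes and p-values, which served only as a check (correlation of log2 fold changes 0.999935 over 12396 genes).

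Rows with no gene name, 1610 of 14006, held 2.64 to 3.63% of counts and were left out. CPM are counts per 1000000 on the other 12396, with library sizes scaled by the TMM factors of the test. The test was edgeR 4.0.16 (quasi-likelihood, TMM; R 4.3.3) with filterByExpr, which removed 0 genes, and Benjamini-Hochberg adjustment. On simulated counts it recovered 50% of genes changed 1.25-fold, 82% at 1.5-fold and 96% at 2-fold. A small change that did not pass is thus not shown to be absent. Alternatives were limma 3.58.1, also on log2(FPKM + 0.1), DESeq2 1.42.0, other scalings, filters, the replicate block and leaving out libraries. CPM and FPKM are relative to the size of a library, so total RNA per cell is not seen. Replicate libraries differed by more than counting noise. Same-numbered libraries did not deviate together, so the numbers do not pair them.

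Values per library are given for members called at a log2 fold change of 0.3 or more in size, for WARS, for partners for the same amino acid, and for CARS and CARS2, added after their values were seen. From each other list, up to 3 called genes of largest change are named; GATB, MRPL58 and the scaffolds complete short counts. ATF4, which the list of its targets holds, is counted apart from it. The members and lists were chosen with earlier results of these data known. The sequences around some seed matches are not reported here.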

Additional observations from a re-analysis of the deposited data

How the results depend on the processing

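Across 15 alternatives, counts of called genes stayed within 1.5 times the main count for all genes, all synthetases, cytosolic and mitochondrial synthetases, and no synthetase changed sign while called. Of the 16 called synthetases, 12 were called in all 15; NARS, QARS, SARS2 and IARS lost the call in 1 or more, and 5 uncalled ones gained it in 1 or more. Leaving out 1 library gave 5761 to 7099 called genes, 12 to 19 synthetases, 7 to 12 cytosolic and 5 to 7 mitochondrial ones. SARS2 and IARS also missed the threshold in limma on log2(FPKM + 0.1) (adjusted p = 0.0796 and 0.14). With a replicate block, 6809 genes (54.9%) and 17 synthetases were called; same-numbered libraries had correlations of -0.126, 0.0049 and 0.0914, so the numbers pair nothing, and IARS had an edgeR adjusted p of 0.0506, HARS 0.0481, YARS2 0.0465 and PSTK 0.0616.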

Other observations

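Genes around the synthetases that have not been described above include the regulators of eIF2alpha, the initiation factor whose phosphorylation leads to ATF4 translation. Of 6 kinases and phosphatase subunits, the phosphatase subunits PPP1R15A (417 ± 14.01 CPM in miR372_3p and 311 ± 21.7 CPM in Control libraries, SD, n = 3 each; log2 fold change 0.43, edgeR adjusted p = 9.38e-05) and PPP1R15B (91.9 ± 2.73 and 71.6 ± 3.29 CPM; 0.36, 0.000174) rose. The kinases EIF2AK2 (66.5 ± 1.27 and 79.5 ± 7.14 CPM; -0.26, 0.00665) and EIF2AK1 fell. With 4 of the 6 called, this list stood at 66.7%, against 54.5% of all genes. Of 11 genes for tRNA end processing and export, HSD17B10, a subunit of mitochondrial RNase P, rose by 0.18 (edgeR adjusted p = 0.00733). ELAC2, which cuts tRNA 3′ ends, fell by 0.18 on the log2 scale (edgeR adjusted p = 0.00863), while 9 did not pass. The 2 called are 18.2% of the 11, below the 54.5% of all genes.

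Among ATF4 and its targets, 3 of the 22 with a promoter entry held TGATGCAA. They did not move one way: CHAC1 and the glutamine transporter SLC1A5 rose, and SLC1A4, a neutral amino acid transporter, fell by 0.62 on the log2 scale, the largest fall in the list. The pattern was noticed after these values were seen and was not tested.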
